A study of Mus musculus with 10 samples.

Results

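Voltage-gated sodium and calcium channel genes were followed in the amygdala of mice with and without neuropsin, the secreted serine protease encoded by Klk8. The genes were taken by symbol: sodium channel pore and beta subunits (Scn followed by a number and a or b), and calcium channel pore (Cacna1), alpha2delta (Cacna2d) and beta (Cacnb1 to Cacnb4) subunits. Probe sets annotated to exactly 1 such symbol numbered 1195 of 1256831 and belonged to 30 genes, all of which were among the 16367 genes tested.

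The arrays were GeneChip Mouse Exon 1.0 ST, whose probe sets each cover roughly 1 exon, and values are log2 RMA values. There were 5 arrays of Wild-type C57BL/6 amygdala and 5 of Neuropsin-/- knock-out amygdala from a line crossed back to C57BL/6 for 12 generations. All mice were 3 months old, and each array held RNA pooled from 3 of the 15 animals of its genotype, read here as separate pools. No label ties the knockout to a promoter or cell type, and in bulk tissue fewer cells of a type and less RNA per cell cannot be told apart.

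A voltage-gated sodium channel is a single large pore protein that opens when the membrane depolarises and carries the upstroke of the action potential, joined by beta subunits that set its gating and placement. A calcium channel joins a pore protein (alpha1) to a cytoplasmic beta subunit and an extracellular alpha2delta subunit, and the pore gene decides the type. L-type channels act mainly on dendrites and cell bodies and link activity to gene expression. P/Q- and N-type channels drive transmitter release, and T-type channels open near rest and support burst firing. In the amygdala, L-type channels are known from work on synaptic plasticity and fear memory.

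Promoter sequence is shown for 3 calcium and sodium channel genes that differed in direction, Cacna1b above 0 and Cacna1i and Scn4b below, chosen after their values were seen. Each is the 250 bases before the annotated start, 5′ to 3′ on the gene's strand, from RefSeq on GRCm38.p6, with GGGCGG, the GC box bound by Sp1 factors, in capitals where it occurs on either strand. Windows for 24 of the 30 genes matched by symbol. The Cacna1b window lies at chr2:24763153-24763402 on the minus strand, that of Cacna1i at chr15:80286988-80287237 on the plus strand and that of Scn4b at chr9:45138374-45138623 on the plus strand.
Cacna1b: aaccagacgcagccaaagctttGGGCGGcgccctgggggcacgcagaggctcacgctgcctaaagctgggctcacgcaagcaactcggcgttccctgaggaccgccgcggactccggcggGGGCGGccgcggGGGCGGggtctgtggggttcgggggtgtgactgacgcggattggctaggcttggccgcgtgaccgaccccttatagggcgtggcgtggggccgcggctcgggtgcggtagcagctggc
Cacna1i: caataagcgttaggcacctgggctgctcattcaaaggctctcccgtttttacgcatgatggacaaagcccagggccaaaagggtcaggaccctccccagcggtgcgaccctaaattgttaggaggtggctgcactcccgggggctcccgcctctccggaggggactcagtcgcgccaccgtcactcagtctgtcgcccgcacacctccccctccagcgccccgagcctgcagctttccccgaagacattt
Scn4b: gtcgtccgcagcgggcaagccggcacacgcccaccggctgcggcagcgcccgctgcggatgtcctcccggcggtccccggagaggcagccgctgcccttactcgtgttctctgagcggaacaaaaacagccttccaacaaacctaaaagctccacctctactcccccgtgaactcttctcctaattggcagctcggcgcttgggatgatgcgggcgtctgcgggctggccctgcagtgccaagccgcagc
The Cacna1b window held 3 GC boxes, and those of Cacna1i and Scn4b held 0. Windows of other channel genes held boxes or none on either side. Above 0, that of Cacna2d1 held 6 and that of Cacna1e 0, and below 0, that of Cacna2d3 held 4 and that of Scn1a 0. GGGCGG was found in 13 of 34 windows of channel genes (38.2%) and in 32.7% of all 32851 windows of that length. TATAAA, the TATA box, searched on both strands, was in 0 of the 3 shown, in 2 of the 34 (5.88%) and in 12.4% of all. The GC content was 72.0% for Cacna1b, 62.4% for Cacna1i and 66.0% for Scn4b, against a median of 52.4% over all windows. A match is a match of letters in this window and says nothing of binding.

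The arrays themselves were alike, with gene levels correlating at 0.958 to 0.987 between any pair, over genes, which are not independent replicates. Wild-type arrays 4 and 5 stood apart on the first principal component, at 20.5 and 23.5. Knockout arrays 4 and 5 came next, at 7.45 and 3.14, and arrays 1 to 3 of both genotypes lay between -14.2 and -2.43. The targeted gene Klk8, on chromosome 7, was 5.52, 5.07, 4.78, 5.23 and 5.26 on wild-type arrays 1 to 5 and 5.21, 4.60, 5.19, 4.86 and 5.25 on knockout arrays 1 to 5, as the mean of its 9 probe sets. These values overlapped, and the difference of -0.15 was within the spread (exact permutation test, two-sided, p = 0.413). Averaged over only its 5 probe sets with a mean above 4.94, the intensity filter, it was -0.39 (exact permutation p = 0.0476). As the median of all 9 probe sets it was -0.61 (exact permutation p = 0.0794). Which part of Klk8 the mutation deletes is unstated in the labels, and probe sets beyond it check nothing, so Klk8 does not settle the genotype labels here. Of the measured channel genes none lies on chromosome 7. Markers of central and medial amygdala were measured for 14 of 16 genes and those of basolateral amygdala and cortex for 14 of 15. Hypothalamic markers were measured for 15 of 18, 14 of them below 0 with a median of -0.21. Centred over all arrays, the hypothalamic list mean ran from 0.044 to 0.31 on wild-type arrays and from -0.31 to -0.045 on knockout arrays. These ranges did not overlap, as those of every other marker list did. Of the members 7 had an unadjusted p under 0.05, all lower, and none passed (limma, smallest adjusted p = 0.270). Pmch, at -1.88, had the lowest difference of all genes tested. The part of this list in the channel values was not tested.

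No channel gene passed the test between the genotypes, 0 of 30 at the gene level (limma, Benjamini-Hochberg threshold 0.05, smallest adjusted p = 0.693), where 0.0244% of all genes did. Differences were small, from -0.51 in Scn4b to 0.19 in Cacna1d, with a median of 0.028 over the 30 genes against -0.0019 over all genes, and 18 were above 0 and 12 below. Direction differed with the share of probe sets passing the intensity filter. Of 22 genes with at least 75% passing, 16 were above 0 (median 0.071), and of the other 8, 2 were (median -0.11). Leaving out single arrays moved the median of the 30 genes between -0.0093 and 0.056. With an unadjusted p under 0.05 there were 5 genes, all higher in the knockout, where 6.98% of all genes had such a p, 2.84% higher and 4.14% lower. They were Cacna1e, Cacna1d, Scn8a, Cacna1c and Cacna1b, 5 pore genes. In these 5 and in the beta subunit gene Cacnb1 every knockout array lay above every wild-type array, which was so in 0.923% of all genes. In no channel gene did every knockout array lie below, against 0.623% of all genes, or 1.55% in either direction. Some alternatives did put a gene wholly below: Cacna1s with the stricter intensity filter, and Cacna1i without knockout array 3. Scn1a was so without wild-type arrays 4 and 5, and Cacna1f and Scn1a without arrays 4 and 5 of both genotypes. Newly wholly above were Cacna2d1 without wild-type array 3 and Cacna1a without arrays 4 and 5 of both genotypes. For Cacna1i and Cacna2d1 the array left out was the only one that overlapped. Fewer arrays separate more easily, and the share of all genes was not counted in these settings. Over all arrays, the gap between the groups in the 6 genes without overlap was only 0.0048 to 0.053 on the log2 scale. Quantile normalization of the table again left only Cacna1d and Cacna1e of the 6 without overlap, and the median over the probe sets of a gene left these and added Scn2a.

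**Figure D1:**
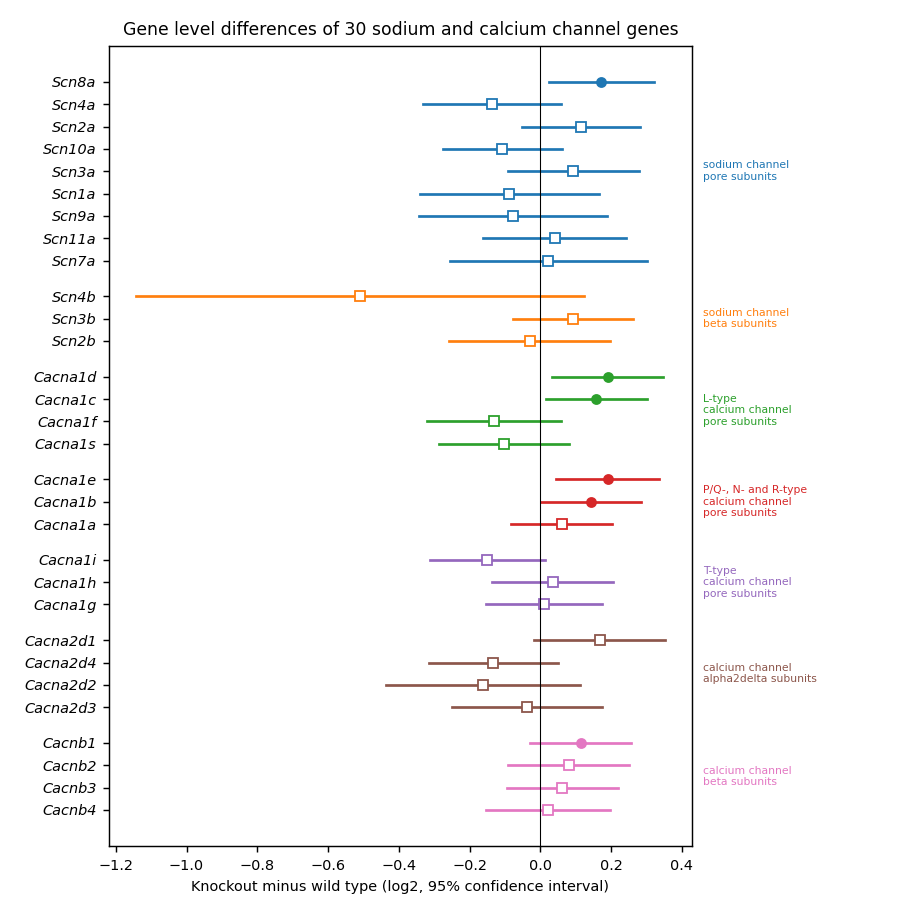
Gene level difference, knockout minus wild type, on the log2 scale (x axis) for the 30 channel genes grouped by role (y axis), with points at the estimate and lines for the 95% confidence interval. Filled circles mark the 6 genes whose knockout arrays all lay above the wild-type arrays, and Scn4b has the widest interval, -1.14 to 0.12.

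Single arrays weighed on the count of 5. It was 2 (6.7%) without wild-type array 1, wild-type array 4, knockout array 2 or knockout array 5. The share of all genes was then 8.1%, 5.7%, 6.1% and 6.2%, near that of the channel genes. Without knockout array 3 or knockout array 4 the count was 3 (10%), against 5.3% and 6.7% of all genes. The count was 8 without wild-type array 3, 6 higher and 2 lower (Scn4a and Cacna2d4), when the share of all genes rose to 10.6%. The single direction did not hold in every setting. Quantile normalization gave 4 higher and 1 lower, where 7.38% of all genes had such a p. The first principal component as a covariate gave 6 higher and 5 lower, against 10.9%. Without wild-type array 5 there were 5 higher and 1 lower (6.54% of all genes), and without knockout array 1, 4 and 1 (5.44%). Without knockout array 3 there were 2 higher and 1 lower, and with the stricter intensity filter 5 and 1 (6.36% of all genes). Cacna1e held an unadjusted p under 0.05 in all 24 alternative settings run, and Cacna1d in 22 of them. The settings reuse the same arrays, and these were the genes of smallest p on them, so the counts add no separate support. The threshold of 0.1 cannot change an unadjusted p, and symbols as annotated left the probe sets of both genes as they were. Neuron markers stood on the same side, with 9 of 9 measured members above 0 and a median of 0.060, as did markers of excitatory neurons of basolateral amygdala and cortex, with 12 of 14 above 0 and a median of 0.11. Myelin and oligodendrocyte markers stood on the other side, with 13 of 13 below 0 and a median of -0.28. Markers of central and medial amygdala were also mostly below 0, 11 of 14 with a median of -0.12. Inhibitory interneuron markers were mixed, 6 above 0 and 7 below with a median of -0.029. As means of each list centred over the 10 arrays, the neuron markers ran from -0.21 to 0.092 over the wild-type arrays and from -0.019 to 0.08 over those of the knockout. The excitatory neuron markers ran from -0.21 to 0.025 over the wild-type arrays and from 0.0096 to 0.10 over those of the knockout, and the myelin markers from -0.42 to 0.46 over the wild-type arrays and from -0.39 to 0.0093 over those of the knockout. No member of these lists passed, and their part in the channel values was not tested.

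Sodium channel pore genes split by direction, with 5 above 0 and 4 below. Scn8a encodes Nav1.6, the channel of the axon initial segment and nodes, and its level was 8.79, 8.95, 8.89, 8.76 and 8.93 on wild-type arrays 1 to 5 and 9.03, 9.10, 9.04, 8.96 and 9.04 on knockout arrays 1 to 5. Its lowest knockout array, 4, lay just above its highest wild-type array, 2. The difference was 0.17 with a standard error (SE) of 0.07 and a 95% confidence interval of 0.02 to 0.32, or 12.6% (limma adjusted p = 0.693). Of its 40 probe sets 34 were above 0, as 50.3% of all probe sets tested were. Probe sets of a gene are read on the same pools and averaged into its level. Such counts, here and below, are therefore not replicates and add no separate support. Scn2a, Nav1.2 of early axon segments and excitatory neurons, was at 9.75 ± 0.13 in wild-type pools and 9.87 ± 0.06 in Neuropsin-/- pools (SD, n = 5 each, as in all such pairs here), and differed by 0.11 (SE 0.08). Its groups overlapped, and 32 of its 37 passing probe sets were above 0. Scn3a, the mainly embryonic Nav1.3, differed by 0.09 (SE 0.09), and by -0.016 without wild-type arrays 4 and 5.

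Scn1a, Nav1.1 of inhibitory interneurons, did not follow Scn8a and Scn2a. It was 8.59, 8.61, 8.62, 8.15 and 8.14 on wild-type arrays 1 to 5 and 8.48, 8.27, 8.47, 8.09 and 8.35 on knockout arrays 1 to 5. The low wild-type arrays were 4 and 5, and knockout array 4 was the lowest of all. The difference was -0.09 with an SE of 0.12 over all arrays, and -0.27 without wild-type arrays 4 and 5 (limma adjusted p = 0.326), which are its lowest wild-type values, so that the separation of the groups then follows from the arrays removed. Without arrays 4 and 5 of both genotypes it was -0.20 (limma adjusted p = 0.716). Wild-type arrays 4 and 5 were the lowest of their genotype in 9 of the 13 marker lists, among them neurons, astrocytes, microglia and endothelium. In the inhibitory interneuron list they were at -0.13 and -0.17 against 0.083 to 0.13 on the others of that genotype, as list means centred over the 10 arrays, and -0.045 to 0.058 in the knockout. The part of these lists in the Scn1a values was not tested.

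The same pair of wild-type arrays was the lowest of its genotype in 10 of the 30 channel genes, namely Scn1a, Scn2a, Scn3a, Scn7a, Scn9a, Scn2b, Cacna2d2, Cacna2d3, Cacnb2 and Cacnb4. Scn9a encodes Nav1.7, best known from pain-sensing neurons, and read 6.31 and 6.32 on arrays 4 and 5 of the wild type and between 6.57 and 6.92 on the other 3. Scn7a encodes Nax, a sodium sensor rather than a classical voltage-gated channel, and was at 6.14 and 6.21 against 6.56 to 6.72. Their differences between genotypes were -0.08 (SE 0.12) and 0.02 (SE 0.13). For the gene Scn9a the value without wild-type arrays 4 and 5 was -0.26, and for Scn7a -0.16. Without arrays 4 and 5 of both genotypes these were -0.17 and -0.064. Array 3 was the highest of its genotype in both genes.

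The remaining pore genes are known chiefly from muscle and sensory ganglia, and many of their probe sets stayed under the intensity filter. Scn4a, the skeletal muscle channel Nav1.4, kept 20 of 32 probe sets. It was 5.93, 6.11, 5.86, 6.26 and 6.20 on wild-type arrays 1 to 5 and 5.91, 6.06, 5.79, 5.96 and 5.95 on knockout arrays 1 to 5, and the highest values were on wild-type arrays 4 and 5. The difference was -0.14 with an SE of 0.09. Scn10a and Scn11a, Nav1.8 and Nav1.9 of sensory neurons, kept 13 of 30 and 12 of 32 and differed by -0.11 and 0.04 (SE 0.08 and 0.09). Muscle markers differed by a median of -0.052, with 4 of 10 above 0, and the gene levels of these channels rest on the brighter part of their probe sets.

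Among sodium channel beta subunits Scn4b had the widest spread of all 30 genes in both genotypes. Scn4b encodes the subunit linked to resurgent current and is abundant in striatal projection neurons. Its level was 7.97, 8.37, 7.89, 7.95 and 7.27 on wild-type arrays 1 to 5 and 8.08, 7.51, 7.92, 6.16 and 7.23 on knockout arrays 1 to 5. Knockout array 4 was far below the rest, wild-type array 5 and knockout array 5 were also low, and the groups overlapped. The difference was -0.51 with an SE of 0.30 and an interval of -1.14 to 0.12 (limma adjusted p = 0.747), with all 8 probe sets below 0. Without knockout array 4 the difference of the gene Scn4b was -0.21.

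Markers of striatum and intercalated cells, a list that does not hold Scn4b, were set beside it. Their mean over 14 genes, centred over the 10 arrays, was 0.14, 0.24, 0.090, 0.069 and -0.11 on wild-type arrays 1 to 5. On knockout arrays 1 to 5 it was 0.022, -0.046, 0.092, -0.46 and -0.037. Knockout array 4 was the lowest and wild-type array 2 the highest in both measures. All 14 markers differed below 0, with a median of -0.17, and their part in the Scn4b difference was not tested.

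**Figure D2:**
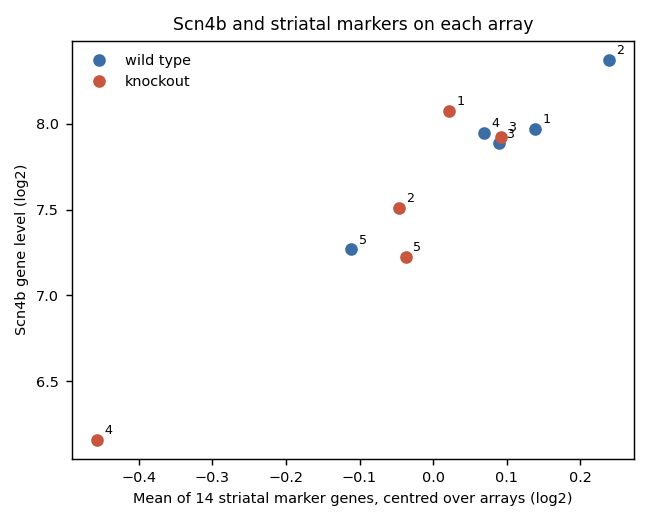
Scn4b gene level in log2 units (y axis) against the mean of 14 striatal marker genes centred over the arrays, in log2 units (x axis), with 1 point for each of the 10 arrays and its array number. Knockout array 4, at -0.46 and 6.16, sits apart at the lower left, and the genotypes mix among the other arrays.

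Scn3b and Scn2b varied less. Scn3b, a beta subunit found in brain, was 8.38, 8.38, 8.60, 8.27 and 8.42 on wild-type arrays 1 to 5 and 8.50, 8.54, 8.63, 8.40 and 8.45 on knockout arrays 1 to 5. The groups overlapped, and the difference was 0.09 (SE 0.08). Scn2b, which is linked to the pore protein by a disulfide bond, was at 9.68 ± 0.22 in wild-type pools and 9.65 ± 0.13 in Neuropsin-/- pools, a difference of -0.03 (SE 0.11). Wild-type array 5 was its lowest value at 9.31.

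In both neuronal L-type pore genes every knockout array lay above every wild-type array, without passing the test. Cacna1d encodes Cav1.3, which opens at more negative voltages than Cav1.2 and drives pacemaking. Its level was 7.98, 7.90, 8.08, 7.90 and 8.09 on wild-type arrays 1 to 5 and 8.14, 8.14, 8.32, 8.16 and 8.14 on knockout arrays 1 to 5. The lowest knockout array, 1, was 0.053 above the highest wild-type array, 5, and knockout array 3 was the highest. The difference was 0.19 with an SE of 0.07 and an interval of 0.03 to 0.35, or 14.1% (limma adjusted p = 0.693), and 56 of 62 probe sets were above 0.

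Cacna1c encodes Cav1.2, the main L-type channel of brain and heart. Its level was 8.47, 8.52, 8.62, 8.49 and 8.61 on wild-type arrays 1 to 5 and 8.63, 8.73, 8.73, 8.71 and 8.69 on knockout arrays 1 to 5. Knockout array 1 was close to wild-type array 3, and the other knockout arrays were clear of the wild type. The difference was 0.16 with an SE of 0.07 and an interval of 0.02 to 0.30 (limma adjusted p = 0.693), with 60 of 68 probe sets above 0. Of the 73 probe sets of Cacna1c, 4 bore an older symbol, and leaving them out changed neither direction nor call.

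Cacna1f of the retina and Cacna1s of skeletal muscle, the other L-type pore genes, lay on the other side, at -0.13 (SE 0.09) and -0.10 (SE 0.09). They kept 26 of 59 and 23 of 50 probe sets above the filter, and their groups overlapped. With the stricter intensity filter, Cacna1s was at -0.28 (limma adjusted p = 0.623) with every knockout array below, and Cacna1f at -0.059.

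The 3 pore genes of P/Q-, N- and R-type channels were all above 0. Cacna1e encodes the R-type channel Cav2.3, which is strongly expressed in amygdala and hippocampus. It was 9.43, 9.37, 9.51, 9.47 and 9.56 on wild-type arrays 1 to 5 and 9.59, 9.65, 9.66, 9.73 and 9.66 on knockout arrays 1 to 5. No knockout array fell to the wild-type range, whose top was array 5, and knockout array 4 was the highest. The difference was 0.19 with an SE of 0.07 and an interval of 0.04 to 0.33, or 14.1% (limma adjusted p = 0.693), and 63 of 67 probe sets were above 0.

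Cacna1b encodes the N-type channel Cav2.2, a main source of calcium for transmitter release. Its level was 8.94, 8.84, 8.96, 8.91 and 9.02 on wild-type arrays 1 to 5 and 9.03, 9.10, 9.11, 9.11 and 9.05 on knockout arrays 1 to 5. Wild-type array 5 came within 0.01 of knockout array 1. The difference was 0.14 with an SE of 0.07 and an interval that just excluded 0, 0.0029 to 0.28 (limma adjusted p = 0.711). Of its 62 probe sets 56 were above 0. Cacna1a, the P/Q-type channel Cav2.1, was at 8.64 ± 0.05 in wild-type pools and 8.70 ± 0.06 in Neuropsin-/- pools, a difference of 0.06 (SE 0.07) with overlapping groups.

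**Figure D3:**
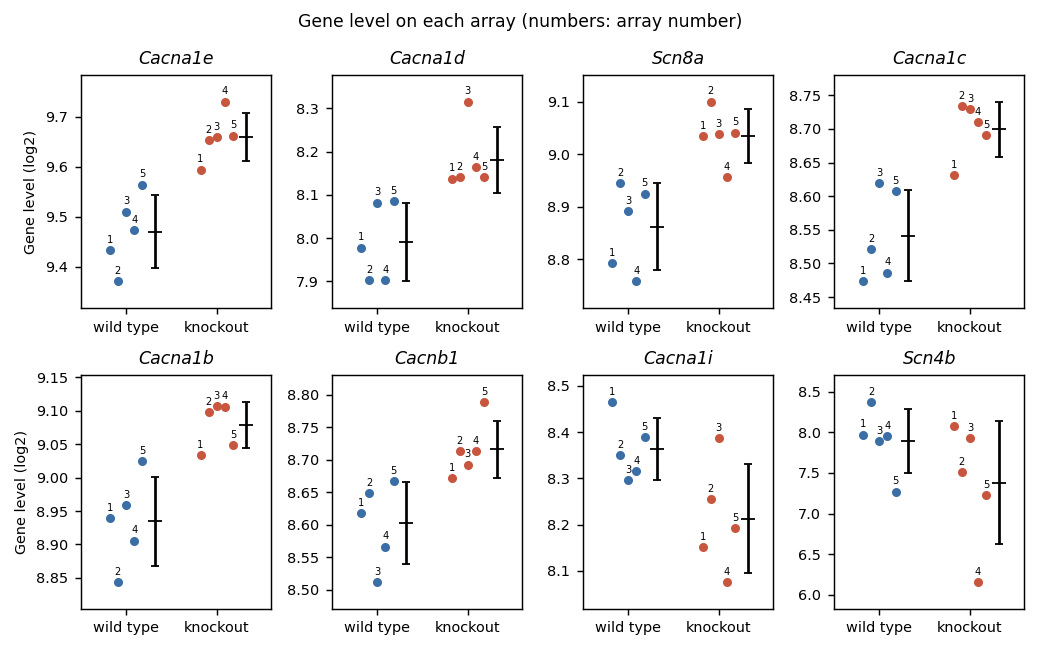
Gene level in log2 units (y axis) on each of the 5 wild-type and 5 knockout arrays (points, with array numbers) for 8 channel genes, with the mean and SD of each group beside the points. The knockout points lie above the wild-type points in Cacna1e, Cacna1d, Scn8a, Cacna1c, Cacna1b and Cacnb1, and the groups overlap in Cacna1i and Scn4b.

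Of the T-type pore genes Cacna1i was the only one below 0. Cacna1i encodes Cav3.3, the slow T-type channel, and was 8.47, 8.35, 8.30, 8.32 and 8.39 on wild-type arrays 1 to 5 and 8.15, 8.26, 8.39, 8.08 and 8.19 on knockout arrays 1 to 5. Knockout array 3 reached the wild-type range and the other 4 lay below it. The difference was -0.15 with an SE of 0.08 and an interval of -0.31 to 0.01 (limma adjusted p = 0.718), with 42 of 44 probe sets below 0. Cacna1h, Cav3.2, was 7.91, 7.77, 7.81, 7.80 and 7.93 on wild-type arrays 1 to 5 and 7.83, 7.97, 8.05, 7.85 and 7.69 on knockout arrays 1 to 5. It was highest on knockout array 3 and lowest on knockout array 5, and the difference was 0.04 (SE 0.08), or -0.0074 without knockout array 3. Cacna1g, Cav3.1 of thalamic relay cells, was at 7.98 ± 0.12 in wild-type pools and 7.99 ± 0.07 in Neuropsin-/- pools, 0.0090 apart.

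Alpha2delta subunits raise the number of calcium channels at the surface, and the products of Cacna2d1 and Cacna2d2 bind gabapentin. Cacna2d1 was 8.55, 8.59, 8.87, 8.47 and 8.70 on wild-type arrays 1 to 5 and 8.75, 8.72, 8.76, 8.85 and 8.94 on knockout arrays 1 to 5. Wild-type array 3 lay among the knockout arrays, and the other 4 were below all of them. The difference was 0.17 with an SE of 0.09 (interval -0.02 to 0.35), and 43 of 48 probe sets were above 0. The other 3 genes were below 0. Cacna2d4, known from photoreceptors, was 6.21, 6.23, 6.09, 6.46 and 6.46 on wild-type arrays 1 to 5 and 6.14, 6.07, 6.24, 6.21 and 6.13 on knockout arrays 1 to 5, with its highest values on wild-type arrays 4 and 5 and a difference of -0.13 (SE 0.09). Cacna2d2 differed by -0.16 (SE 0.13). Wild-type array 1 was its highest value at 8.20, and for Cacna2d2 the difference was -0.057 without that array. Cacna2d3 differed by -0.04 (SE 0.10).

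Calcium channel beta subunits, which escort the pore to the membrane and tune its opening, were all 4 above 0. Cacnb1 was 8.62, 8.65, 8.51, 8.57 and 8.67 on wild-type arrays 1 to 5 and 8.67, 8.71, 8.69, 8.71 and 8.79 on knockout arrays 1 to 5. Knockout array 1 and wild-type array 5 were almost equal, 0.0048 apart. The difference was 0.11 with an SE of 0.07 (interval -0.03 to 0.26). Cacnb2 was 7.91, 8.05, 8.16, 7.80 and 7.89 on wild-type arrays 1 to 5 and 8.0, 8.03, 8.15, 8.02 and 8.02 on knockout arrays 1 to 5. Its values overlapped, with array 3 the highest in each genotype, and the difference was 0.08 (SE 0.08); the median over the probe sets of Cacnb2 turned it to -0.017. Cacnb3 and Cacnb4, the beta subunits most typical of brain, differed by 0.06 (SE 0.07) and 0.02 (SE 0.08).

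**Figure D4:**
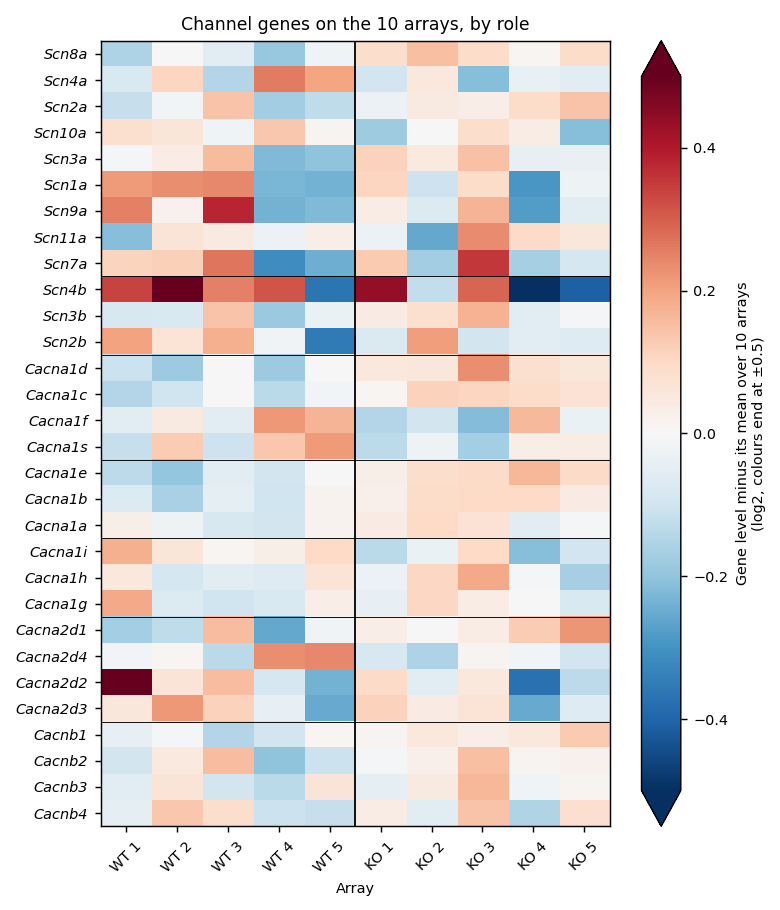
Gene level minus its mean over the 10 arrays, in log2 units (colour, ending at ±0.5), for the 30 channel genes by role (rows) on 5 wild-type (WT) and 5 knockout (KO) arrays (columns). Scn4b passes both ends of the scale, and Scn1a, Scn9a and Scn7a are low on wild-type arrays 4 and 5.

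The spread between arrays was otherwise small. The SD over the 5 wild-type arrays ran from 0.054 in Cacna1a to 0.40 in Scn4b with a median of 0.12, against a median of 0.17 over all genes. In the knockout it ran from 0.035 in Cacna1b to 0.76 in Scn4b with a median of 0.092, against 0.11 over all genes.

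No single probe set of a channel gene passed either. Of the 1195 probe sets 1007 passed the intensity filter, and 0 of these passed the test (limma, smallest adjusted p = 0.708), where 0.00239% of all 628415 did. An unadjusted p under 0.05 was found in 54 of them, 40 higher and 14 lower, or 5.36% against 5.97% of all (3.33% higher and 2.64% lower). The genotypes did not overlap at 30 probe sets, 27 with the knockout above and 3 with it below, against 0.693% above and 0.409% below among all probe sets, or 1.10% together. Cacna1e alone held 9 of the 27, Cacna1b and Cacna1d 5 each, Cacna1c 3 and Scn8a 2. Relative to the mean of the other probe sets of their gene, 6 lay above and 6 below without overlap, against 0.463% in each direction and 0.926% together among all.

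The probe set of smallest p was 5469524 of Cacna1c, at 6.85, 6.78, 7.02, 6.98 and 6.54 on wild-type arrays 1 to 5 and 7.21, 7.59, 7.44, 7.57 and 7.44 on knockout arrays 1 to 5. All knockout arrays lay above the wild type, the nearest pair being wild-type array 3 and knockout array 1. The difference was 0.62 (SE 0.15), larger than that of the whole gene. Another L-type probe set, 4799447 of Cacna1d, was at 9.21, 9.03, 9.31, 9.30 and 9.15 on wild-type arrays 1 to 5 and 9.95, 9.64, 9.79, 9.63 and 9.54 on knockout arrays 1 to 5. Its groups were also apart, with a difference of 0.51 (SE 0.14).

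Among P/Q-, N- and R-type pore genes probe set 4911425 of Cacna1e was at 9.82, 9.72, 10.09, 9.70 and 9.95 on wild-type arrays 1 to 5 and 10.08, 10.26, 10.31, 10.64 and 10.51 on knockout arrays 1 to 5. Knockout array 1 fell below wild-type array 3, so the groups overlapped, and the difference was 0.50 (SE 0.16). Probe set 5168366 of Cacna1b was at 9.78, 9.85, 9.96, 9.80 and 9.71 on wild-type arrays 1 to 5 and 10.37, 10.30, 10.14, 10.03 and 10.23 on knockout arrays 1 to 5. Its groups did not overlap, and it differed by 0.39 (SE 0.14).

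Sodium channel probe sets went both ways. In Scn3a, probe set 4748409 was at 7.02, 6.84, 7.05, 6.90 and 6.63 on wild-type arrays 1 to 5 and 7.46, 7.33, 7.38, 7.36 and 7.24 on knockout arrays 1 to 5. Every knockout array lay above, by 0.47 on average (SE 0.14), while the gene level of Scn3a overlapped. In Scn1a, probe set 5327492 was at 7.76, 8.06, 8.39, 7.64 and 7.54 on wild-type arrays 1 to 5 and 7.51, 7.35, 7.29, 7.22 and 7.31 on knockout arrays 1 to 5. Every knockout array lay below, with wild-type array 3 the highest, and the difference was -0.54 (SE 0.18).

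The remaining probe sets of this kind belong to genes of sensory neurons, retina and muscle. Probe set 4828569 of Scn10a was at 6.01, 5.41, 5.40, 5.90 and 5.34 on wild-type arrays 1 to 5 and 4.91, 5.0, 5.09, 4.81 and 4.53 on knockout arrays 1 to 5. Here too the knockout arrays were all below, with a difference of -0.74 (SE 0.18). Probe set 5300397 of Scn11a was at 4.68, 5.10, 4.28, 4.65 and 5.38 on wild-type arrays 1 to 5 and 6.14, 5.24, 5.45, 5.14 and 5.54 on knockout arrays 1 to 5, with wild-type array 5 within the knockout range and a difference of 0.68 (SE 0.24). Probe set 4427537 of Cacna1f was at 5.83, 5.51, 5.08, 5.98 and 5.70 on wild-type arrays 1 to 5 and 3.81, 4.71, 5.59, 4.28 and 4.95 on knockout arrays 1 to 5. It had the widest knockout spread of the 10 of smallest p, from array 1 to array 3, and differed by -0.95 (SE 0.29). Its knockout mean, 4.67, was under the intensity filter, as was that of 4828569, 4.87. Probe set 5073478 of Cacna1s was at 7.47, 7.80, 7.44, 7.61 and 7.90 on wild-type arrays 1 to 5 and 6.79, 7.25, 7.20, 7.54 and 7.04 on knockout arrays 1 to 5, with knockout array 4 inside the wild-type range and a difference of -0.48 (SE 0.17).

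**Figure D5:**
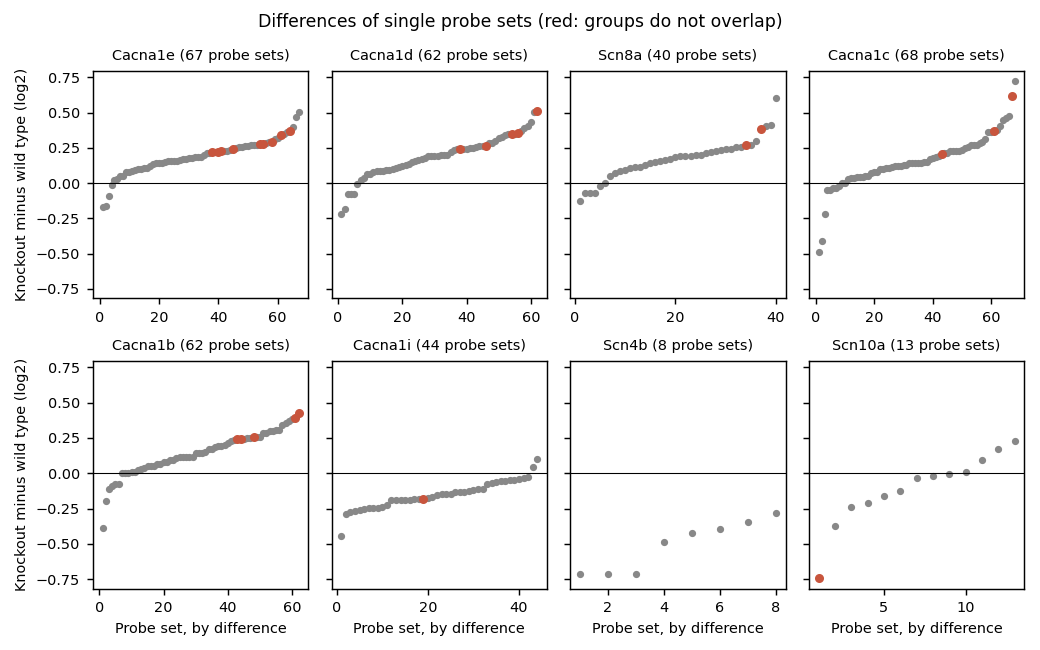
Difference of single probe sets, knockout minus wild type, in log2 units (y axis), sorted by that difference (x axis: rank) for 8 channel genes, with red points where the 5 knockout and 5 wild-type arrays did not overlap. Most probe sets of Cacna1e, Cacna1d, Scn8a, Cacna1c and Cacna1b lie above 0, most of Cacna1i and all of Scn4b below, and in Scn10a a single probe set, at -0.74, stands below the rest.

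Relative use of exons, the value of a probe set minus the mean of the other passing probe sets of its gene on the same array, passed in 0 of 30 genes (limma with a variance for each probe set, Simes p per gene, smallest adjusted p = 0.815), where 0.0367% of all genes did. Only Scn10a had an unadjusted Simes p under 0.05, as 5.42% of all genes did. Its probe set 4828569 differed by -0.69 relative to the gene (SE 0.15). The knockout mean of this probe set, 4.87, was under the intensity filter. Next came Scn3a 4748409 at 0.38 (SE 0.11), Scn1a 5327492 at -0.47 (SE 0.13) and Cacna1c 5469524 at 0.47 (SE 0.13).

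Further probe sets were led by their relative value. Probe set 4908836 of Scn4a was at 5.61, 4.78, 5.21, 5.52 and 5.47 on wild-type arrays 1 to 5 and 6.12, 5.68, 5.70, 5.80 and 5.61 on knockout arrays 1 to 5, with the lowest knockout array, 5, barely above wild-type array 1, and relative to its gene it differed by 0.63 (SE 0.19). Probe set 5346456 of Scn7a was at 7.44, 6.96, 6.99, 6.74 and 6.95 on wild-type arrays 1 to 5 and 6.53, 6.77, 6.96, 6.32 and 6.14 on knockout arrays 1 to 5, with overlapping groups and a relative difference of -0.52 (SE 0.17). In Cacnb3, probe set 4462568 was at 6.76, 6.42, 6.85, 6.13 and 6.83 on wild-type arrays 1 to 5 and 5.80, 6.13, 5.81, 6.41 and 6.44 on knockout arrays 1 to 5, lowest on knockout arrays 1 and 3, with a relative difference of -0.58 (SE 0.20). Probe set 4702988 of Cacna1f was at 6.19, 5.92, 6.64, 6.58 and 6.65 on wild-type arrays 1 to 5 and 6.50, 6.54, 6.67, 6.94 and 6.92 on knockout arrays 1 to 5. It overlapped between genotypes and had a relative difference of 0.47 (SE 0.16). Probe set 5340203 of Cacna1e was at 9.31, 9.46, 9.39, 9.38 and 9.25 on wild-type arrays 1 to 5 and 9.06, 9.39, 8.93, 9.34 and 9.26 on knockout arrays 1 to 5, lowest on knockout array 3, against the direction of its gene, at -0.36 relative to it (SE 0.12). The relative difference of 5073478 in Cacna1s was -0.39 (SE 0.13).

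limma's diffSplice, which shares a variance over the probe sets of a gene, called 1 channel gene, Cacna1c (Simes adjusted p = 0.0358), where it called 1.69% of all genes. The leading probe set there was 4396881, at 6.49, 6.77, 7.05, 6.54 and 7.21 on wild-type arrays 1 to 5 and 5.97, 7.03, 5.93, 6.03 and 6.67 on knockout arrays 1 to 5. Knockout arrays 2 and 5 were within the wild-type range and arrays 1, 3 and 4 below it, and relative to the gene the difference was -0.65 (SE 0.22 with a variance of its own). Cacnb3 and Cacna1b followed without passing (Simes adjusted p = 0.0849 and 0.120).

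Genes that work with these channels were described from lists, and none of their members passed. Of 6 measured gamma subunit genes, which include regulators of AMPA receptors, 2 were above 0 and 4 below with a median of -0.082, and Cacng8 was at 0.27 (SE 0.09) and Cacng1 at -0.19 (SE 0.13). Of 17 sodium channel partners and axon initial segment genes 16 were above 0, with a median of 0.062. Nrcam, an adhesion molecule of the initial segment, was at 0.18 (SE 0.07) and Nedd4l, a ubiquitin ligase that acts on sodium channels, at 0.15 (SE 0.08). Calcium channel partners were 13 above and 11 below of 24, with a median of 0.012. Among them Rims3, of the active zone, was at -0.26 (SE 0.09) and Stac at -0.15 (SE 0.08). Of 13 sodium leak and other cation channel genes 4 were above 0, with a median of -0.042, and the pacemaker channel genes Hcn4 and Hcn2 were at -0.21 (SE 0.09) and -0.17 (SE 0.08). Neuronal splicing regulators were above 0 in 17 of 23, with a median of 0.081, and Khdrbs2 was at 0.20 (SE 0.08) and Celf4 at 0.16 (SE 0.07).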

How the data were processed

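RNA of amygdala was measured on 10 exon arrays, 5 per genotype. The deposited values are log2 values that the authors made by RMA with Expression Console, per the submitters' processing notes. The sources used here give neither versions nor the annotation's genome build. Scanner images were not used here, so background correction and scan day were not varied. Probe sets (1256831, of which 20744 at 0 on every array) were named through the platform annotation, 318760 with 1 gene, and older symbols were updated through the reference table (Scn2a1 to Scn2a, 39 probe sets; 4 probe sets of Cacna1c).

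The 628415 probe sets with an average above 4.94, the median probe set's, were tested. A gene level is the mean of at least 3 of them with exactly 1 gene (16367 genes, 238335 probe sets). Knockout was compared with wild type with limma 3.58.1 (R 4.3.3; lmFit, eBayes, two-sided, Benjamini-Hochberg over all features, threshold 0.05), without covariates. Exon use was tested on relative values with a variance for each probe set, because probe sets of a gene differ in spread; diffSplice was an alternative. Scripts were tested on simulated data. The number of arrays limits precision, and p-values measure the spread between pools. Levels of different genes were not compared, since probes differ in brightness.

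The channel genes, lists and alternatives were chosen with earlier results of these data known. Values are given on every array for the 2 genes of smallest p in each role (1 in roles of fewer than 3) and for up to 10 probe sets of smallest p in each test, 1 per gene. In each partner list the 2 members of smallest p are named. Scn1a, Scn9a, Scn7a, Cacna2d2, 4396881 and other array values outside this rule were chosen after they were seen. Lists of astrocyte, microglia, precursor, vessel and choroid plexus markers were also measured, and had medians of -0.027, -0.047, 0.0012, -0.079 and -0.16, and the interneuron list -0.029 and the central and medial amygdala list -0.12. Alternatives covered normalization, filter, replicate block, each array left out, arrays 4 and 5 left out, array weights, variance prior, first component, threshold, probe set summary and, added after seeing the data, symbols as annotated.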

Additional observations from a re-analysis of the deposited data

Results flagged for a closer look

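Among 96 groups of 5 arrays examined, 3 held an array far from the other 4, by the gap to its nearest neighbour as a share of the group's range. Chance flags about 1 in 20 groups. All 3 were in the knockout, each above the rest. Scn2b on knockout array 2 was at 9.87, next to 9.61, a share of 0.877. Cacna1d on knockout array 3 was at 8.32, next to 8.16, a share of 0.849, and without that array the difference of the gene Cacna1d was 0.16 in place of 0.19. Cacnb2 on knockout array 3 was at 8.15, next to 8.03, a share of 0.786.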

How the results depend on the processing

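No channel gene and no channel probe set passed in any setting run, the replicate block among them, and exon use passed only with diffSplice, in 1 gene (Cacna1c). Klk8 past the intensity filter differed by -0.39 (exact permutation p = 0.0476), and as the median of all probe sets by -0.61 (exact permutation p = 0.0794). Its difference as the mean of all probe sets was -0.25 to -0.045 with each array left out. Same-numbered arrays deviated together at correlations of 0.082 to 0.41, below 0.1 for number 2, and differently numbered ones at -0.36 to 0.39. Wild-type array 4 with knockout array 5 was at 0.29, and wild-type array 5 with knockout array 4 at 0.39. The labels name no pairs, and the numbers were not taken as pairs in the main test. With the replicate number as a block 0 channel genes passed, 4 (13.3%) had an unadjusted p under 0.05 in place of 5, where 10.97% of all genes did, and not every array correlated best with its own number. Genes near 0 turned sign. Leaving out single arrays gave Cacna1g -0.0154 to 0.0571, Cacna1h -0.0074 to 0.081, Cacna2d3 -0.105 to 0.0211, Cacnb4 -0.0112 to 0.0620, Scn11a -0.013 to 0.11, Scn2b -0.12 to 0.015, Scn7a -0.064 to 0.091 and Scn9a -0.147 to 0.00725. Quantile normalization gave Cacna1g -0.00251. No filter gave Cacna1g -0.00766 and Scn11a -0.026, and the stricter filter Scn7a -0.029. Without wild-type arrays 4 and 5, Cacna1g was at -0.00220, Cacnb4 -0.046, Scn3a -0.016 and Scn7a -0.16. Without arrays 4 and 5 of both genotypes Cacnb4 was at -0.016 and Scn7a -0.064, with array weights -0.015 and -0.085, and with the first component -0.0068 and -0.061. The median over probe sets gave Cacna1g -0.037, Cacnb2 -0.017, Scn11a -0.033 and Scn3a -0.036. The cause was not tested. The count of 5 genes with an unadjusted p under 0.05 became 2 with the median over probe sets (5.72% of all genes), 8 without wild-type arrays 4 and 5 (5 higher and 3 lower; 11.2%), 1 without arrays 4 and 5 of both genotypes (7.14%) and 11 with the first component (6 higher and 5 lower; 10.9%). Other changes of setting kept the direction of the named results.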
